A study of Mus musculus with 4 samples.

Results

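The cells described here are spleen natural killer (NK) cells in which the transcript of Klrg1, an inhibitory receptor of mature NK cells, was counted at least once. A spleen barcode was taken when it had at least 500 UMIs (unique molecular identifiers, 1 for each RNA molecule counted), at least 200 genes and no more than 10% of its UMIs from mitochondrial genes. It also needed at least 1 UMI of Ncr1, the gene of the NK receptor NKp46. Barcodes with any UMI of Cd3d, Cd3e, Cd3g, C1qa or Cd79a, or with more than 2 UMIs of Lyz2, were left out, to keep away T cells, macrophages, B cells and other myeloid cells. This gave 3272 spleen NK cells, of which 1251 had at least 1 Klrg1 UMI and 2021 had none. The 1251 cells were 379 from the wild-type (WT) library and 872 from the Ndufa4-deficient (KO) library, among 14482 spleen cells passing the limits and 26816 barcodes in the whole series. The cells were chosen by their measured UMIs of Ncr1, Klrg1 and the excluded genes, so every contrast of Klrg1-positive with Klrg1-negative cells below is a description.

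Male C57BL/6 mice aged 8 weeks carried a subcutaneous B16-F10 melanoma, a mouse tumour cell line, and organs were taken on day 18. The study compared animals lacking Ndufa4, a small protein of cytochrome c oxidase (respiratory complex IV), with WT animals. Spleen cells had been sorted for CD45 and CD11b, and tumour cells for CD45. Equal numbers of cells from 3 mice of a genotype were pooled, though the protocol speaks of up to 4. The sources used here do not say which part of Ndufa4 was deleted. Each genotype and organ was thus 1 pooled library. No test between genotypes was possible, and no difference below has a replicate check. Levels are given as CPM, the UMIs of a gene per 1e+06 UMIs of its group of cells. Square brackets hold 95% intervals that cover counting error only.

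NK cells kill stressed, infected or malignant cells by releasing perforin and granzymes from granules, and they secrete chemokines and interferon gamma. In mice they mature from CD27-high cells to CD11b-high cells, and Klrg1 appears late on that path. Late cells typically carry more granzyme B, the fractalkine receptor Cx3cr1 and the egress receptor S1pr5, while early cells carry Cd27, Tcf7 and Emb. Because CD11b is itself gained on that path, the spleen sort limited which NK cells could be present.

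The spleen libraries held 57272311 UMIs on 8107 barcodes (WT) and 46499361 UMIs on 7789 barcodes (KO). Klrg1-positive cells had a median of 4449 UMIs in WT and 4212.5 in KO, against 4190 and 3984.5 in Klrg1-negative cells, so the split also followed depth to a small degree. The libraries shared 19 barcodes, none of them Klrg1-positive in both. Ndufa4 itself (chr6:11900292-11907497, minus strand, GRCm38) separated the libraries. It had 662 UMIs in WT Klrg1-positive cells, a level of 360 [333, 388] CPM, and 0 UMIs in KO Klrg1-positive cells. Set at a floor of 3 counts over the KO group, the KO level was at least 487-fold lower. The Klrg1-negative cells had 1172 UMIs in WT and 1 in KO.

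NK cells and Klrg1-positive NK cells both took a larger share of the KO than of the WT spleen library. By the rule, 14.2% [13.4, 15.0] of WT and 31.7% [30.6, 32.8] of KO spleen cells were NK cells. Klrg1-positive NK cells were 5.03% [4.55, 5.55] of the WT and 12.5% [11.8, 13.3] of the KO cells, a difference of 7.51 [6.59, 8.44] percentage points. Within NK cells, Klrg1-positive cells made up 35.4% [32.6, 38.4] in WT and 39.6% [37.5, 41.7] in KO. That difference of 4.18 [0.633, 7.66] points excluded 0 by counting error alone, but the spread between mice is unknown. Shares of all cells were also set by the CD11b sort, whose effect on them was not tested.

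**Figure D1:**
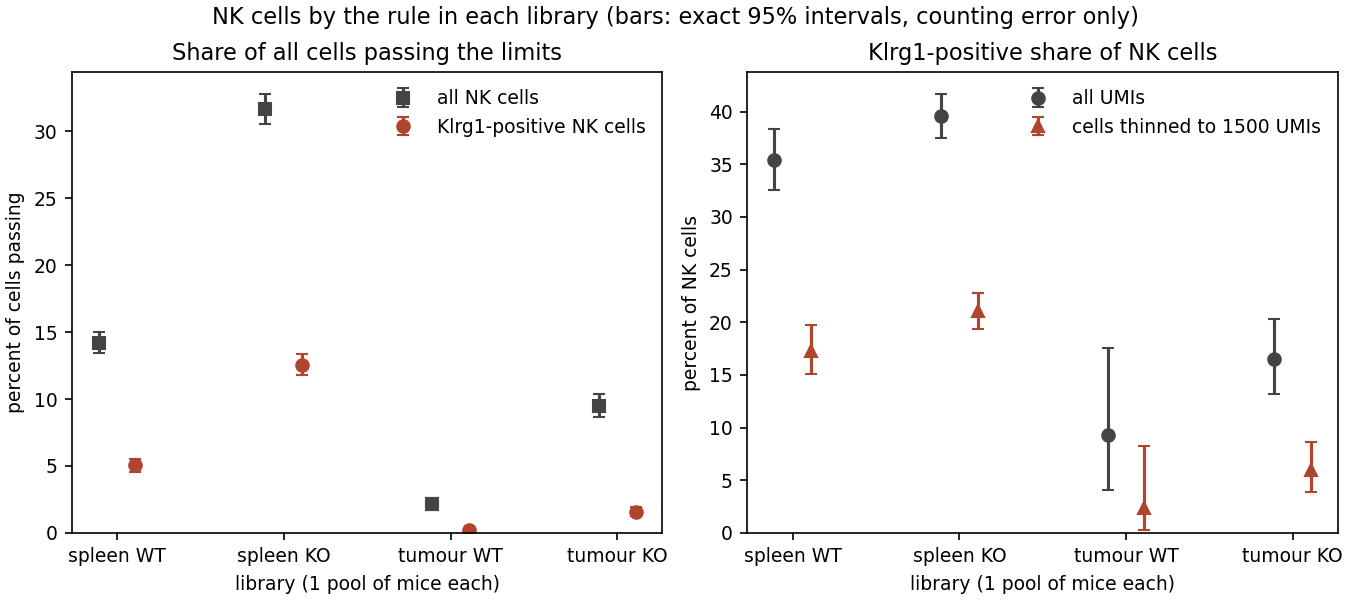
The left panel plots NK cells (squares) and Klrg1-positive NK cells (circles) as a percentage of cells passing the limits, and the right panel the Klrg1-positive percentage of NK cells before (circles) and after (triangles) thinning every cell to 1500 UMIs. Bars are exact 95% binomial intervals. The KO value lies above the WT value in the spleen in both panels, and the thinned shares are 17.3% and 21.03%.

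A Klrg1 count of 0 does not show that a cell lacks the transcript. When each NK cell was thinned to 1500 UMIs, the Klrg1-positive share of NK cells was 17.3% [15.1, 19.7] in WT and 21.03% [19.3, 22.8] in KO. The boundary lay between 1 and 0 UMIs, and 193 WT and 410 KO cells sat just inside it with exactly 1 Klrg1 UMI. Gzmb was at 624 CPM in the WT cells with 1 Klrg1 UMI and at 398 in those with none. In KO, the same classes were at 651 and 532. Cells with 1 Klrg1 UMI were thus above the whole Klrg1-negative group for Gzmb, in both libraries. Xcl1, lower in Klrg1-positive cells, was at 75.5 and 176 in the same classes in WT but at 146 and 144 in KO.

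The label of mature NK cells was checked against its markers. Ncr1, at 791 [751, 832] CPM in WT and 882 [853, 911] in KO Klrg1-positive cells, was required of every cell. Gzmb had a UMI in 80.7% of WT and 81.3% of KO Klrg1-positive cells, and in 65.0% and 71.9% of Klrg1-negative cells. Cma1 had one in 72.3% and 72.2%, against 56.4% and 57.0%, so both transcripts were common in Klrg1-negative NK cells too. Of 15 NK identity genes, such as Klrb1c (the NK1.1 antigen gene), Klrk1 (NKG2D) and Nkg7, all 15 were measured and none differed by 1.5-fold between Klrg1-positive and Klrg1-negative cells of either library. Of 20 genes listed for the mature NK program, 4 in WT and 1 in KO were at least 1.5-fold higher in Klrg1-positive than in Klrg1-negative cells, and none was lower. Over all measured genes, 0.886% in WT and 0.912% in KO were that much higher. In each library 18 of the 20 lay above 0, against 48.5% of all measured genes in WT and 48.4% in KO. The list medians were 0.38 and 0.24 on the log2 scale, and the median over all genes was -0.01 in both splits. Itgam, the gene of CD11b, had a UMI in 87.6% of WT and 85.7% of KO Klrg1-positive cells, and in 79.5% and 78.0% of Klrg1-negative cells. Gzmb and Cma1 were the label's own markers, and the gene lists were chosen with earlier results of these data known. The check was therefore not independent of the label, which was kept as a name.

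RNA listed as markers of other cell types was present. Neutrophil markers summed to 2812 CPM in WT and 1299 in KO Klrg1-positive cells, with none of the 11 markers at 0. B cell markers summed to 556 and 423, dendritic cell markers to 820 and 398, and monocyte and macrophage markers to 252 and 180. The 11 T cell markers summed to 498 and 578, against 606 and 628 in Klrg1-negative cells. The part of these sums from T cells was not tested. In WT, Fcmr of 9 B cell markers, Xcr1 and Clec9a of 11 dendritic cell markers, and Fcgr1 of 15 monocyte markers were at 0. In KO, Cd14 was at 0. Klrg1-negative cells of WT and KO had neutrophil sums of 2570 and 2006 and dendritic cell sums of 1086 and 628. Their B cell sums were 775 and 601, and their monocyte and macrophage sums 257 and 226. Erythroid markers summed to 89.1 and 165 in Klrg1-positive and to 2199 and 31.4 in Klrg1-negative cells. Cells with more than 1% of UMIs from markers of 7 other cell types made up 5.28% (20 cells) of WT and 1.49% (13 cells) of KO Klrg1-positive cells. Without them, the neutrophil sums were 530 in WT and 734 in KO. Results are therefore also given without these cells, a choice made after the data had been seen. The markers themselves decided which cells were left out, so a fall in their own levels was partly set by that choice. T cell markers were not used for it.

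Granzyme B and the chymase gene Cma1 were the granule genes that followed Klrg1 most. Their promoter windows are shown first because each gene was higher in Klrg1-positive cells of both libraries and both lie on the same stretch of chromosome 14. The windows run from 250 bases before to 50 after the RefSeq start site (GRCm38.p6), all are read 5′ to 3′ on the gene's strand, and Cx3cr1 and Emb are added as the mature and early genes with clear differences in both libraries. Capitals mark matches to TGTGGT (the Runx core), TGANTCA (AP-1) or CAGGTG (an E-box that Zeb2 can bind), searched on both strands together with GGTGTGA (the T-box core).
Gzmb, chr14:56262285-56262584, minus strand: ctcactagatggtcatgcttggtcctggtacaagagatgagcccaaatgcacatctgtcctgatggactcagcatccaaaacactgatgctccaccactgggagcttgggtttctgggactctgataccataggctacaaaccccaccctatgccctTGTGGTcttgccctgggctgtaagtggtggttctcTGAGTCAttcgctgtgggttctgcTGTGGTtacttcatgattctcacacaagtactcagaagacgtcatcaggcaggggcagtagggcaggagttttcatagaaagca
Cma1, chr14:55944626-55944925, minus strand: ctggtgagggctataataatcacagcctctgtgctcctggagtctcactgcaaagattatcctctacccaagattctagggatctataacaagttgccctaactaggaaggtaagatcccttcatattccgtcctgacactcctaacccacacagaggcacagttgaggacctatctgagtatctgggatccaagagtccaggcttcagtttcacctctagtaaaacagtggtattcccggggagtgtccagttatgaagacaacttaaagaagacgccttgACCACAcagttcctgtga
Cx3cr1, chr9:120068247-120068546, minus strand: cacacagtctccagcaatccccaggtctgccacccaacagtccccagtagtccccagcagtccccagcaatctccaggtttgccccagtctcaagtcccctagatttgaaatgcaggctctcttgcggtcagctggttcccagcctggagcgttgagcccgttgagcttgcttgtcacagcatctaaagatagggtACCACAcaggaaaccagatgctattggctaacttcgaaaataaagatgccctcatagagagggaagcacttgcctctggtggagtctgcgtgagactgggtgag
Emb, chr13:117220323-117220622, plus strand: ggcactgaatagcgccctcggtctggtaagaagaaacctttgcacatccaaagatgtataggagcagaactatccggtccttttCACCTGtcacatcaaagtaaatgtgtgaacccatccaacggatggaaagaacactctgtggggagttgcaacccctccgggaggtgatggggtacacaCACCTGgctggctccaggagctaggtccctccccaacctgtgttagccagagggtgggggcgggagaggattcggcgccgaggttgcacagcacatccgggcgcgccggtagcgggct

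The Gzmb window held TGTGGT at 93 and 34 bases before the start site and TGANTCA, which reads the same on both strands, at 58 bases before it. Cma1 held the reverse complement of TGTGGT 32 bases after the start site, and Cx3cr1 held it 54 bases before. Emb held the reverse complement of CAGGTG at 166 and 68 bases before its start site. Of 32851 promoter windows of that length, 16.8% held TGTGGT, 7.81% held TGANTCA, 20.2% held CAGGTG and 3.98% held GGTGTGA. These are matches of letters only.

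Gzmb and Cma1 lie 317.387 kb apart, at chr14:56258838-56262260 and chr14:55941451-55944675 (GENCODE M21, GRCm38). The stretch of 320.81 kb holds 15 protein-coding genes of the granzyme and mast cell protease families. Only Gzmb and Cma1 reached 100 UMIs over the 4 groups of spleen NK cells. Gzmc, the nearest neighbour of Gzmb, had 1 and 4 UMIs in WT and KO Klrg1-positive cells, and Gzmd, Gzme, Gzmf, Gzmg and Gzmn had 0.

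Gzmb, the protease that starts apoptosis in target cells, was at 688 [651, 727] CPM in WT Klrg1-positive cells and at 398 [377, 420] in WT Klrg1-negative cells. In KO, the levels were 712 [686, 738] and 532 [513, 551]. The log2 ratio of positive over negative cells was 0.79 [0.68, 0.90] in WT and 0.42 [0.35, 0.49] in KO. The Klrg1-positive levels lay within 0.05 [-0.05, 0.15] of each other between libraries, whereas the KO Klrg1-negative level was 0.42 [0.32, 0.51] above the WT one. Whether these genotype ratios differ was not tested, as each rests on 1 library. Cma1, a chymotrypsin-like protease best known from mast cells, was at 405 and 414 in WT and KO Klrg1-positive cells and at 255 and 288 in Klrg1-negative cells. The 8 listed basophil and mast cell markers summed to 28.8 CPM in WT and 25.1 in KO Klrg1-positive cells, with 6 and 5 of them at 0, Mcpt8, Cpa3, Tpsb2 and Mcpt4 in both.

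Per cell, Gzmb and Cma1 were seen together somewhat more often than the product of their single shares. After thinning to 1500 UMIs, Gzmb had a UMI in 56.3% [51.2, 61.4] of WT and 58.2% of KO Klrg1-positive cells, against 37.4% and 48.3% of Klrg1-negative cells. B cells of the same libraries, which should lack the gene, had it in 0.873% and 0.660%, at median depths of 7585 and 6142 UMIs before thinning. Gzmb and Cma1 were seen in the same cell in 26.7% of WT and 26.1% of KO Klrg1-positive cells. The product of the single shares was 23.6% and 24.7%. In Klrg1-negative cells the share of both was 13.4% in WT and 16.1% in KO, against products of 11.2% and 15.1%. The intervals of the Klrg1-positive shares were [22.3, 31.5] and [23.2, 29.1]. They cannot decide whether the 2 genes go together, since each product comes from the same cells, and this was not tested.

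The other granule genes differed less. Gzma, the most abundant granzyme, was at 10957 CPM in WT and 11660 in KO Klrg1-positive cells, with log2 ratios over Klrg1-negative cells of 0.49 and 0.32. In thinned cells the median was 17 Gzma UMIs in WT and 18 in KO Klrg1-positive cells, against 12 and 14 in Klrg1-negative cells. Prf1, the pore former perforin, was 0.33 [0.26, 0.40] and 0.26 [0.21, 0.31] higher. Of 16 granule and killing genes, 12 were measured in the WT split, 11 of them above 0. Past 1.5-fold were Gzmb and Cma1 in WT, against a background of 0.886% of 6774 genes at least 1.5-fold higher and 2.21% lower. In KO, 13 were measured and none was past 1.5-fold, against 0.912% higher and 2.02% lower of 8224 genes. A gene was measured when it had at least 100 UMIs over both groups of cells.

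**Figure D2:**
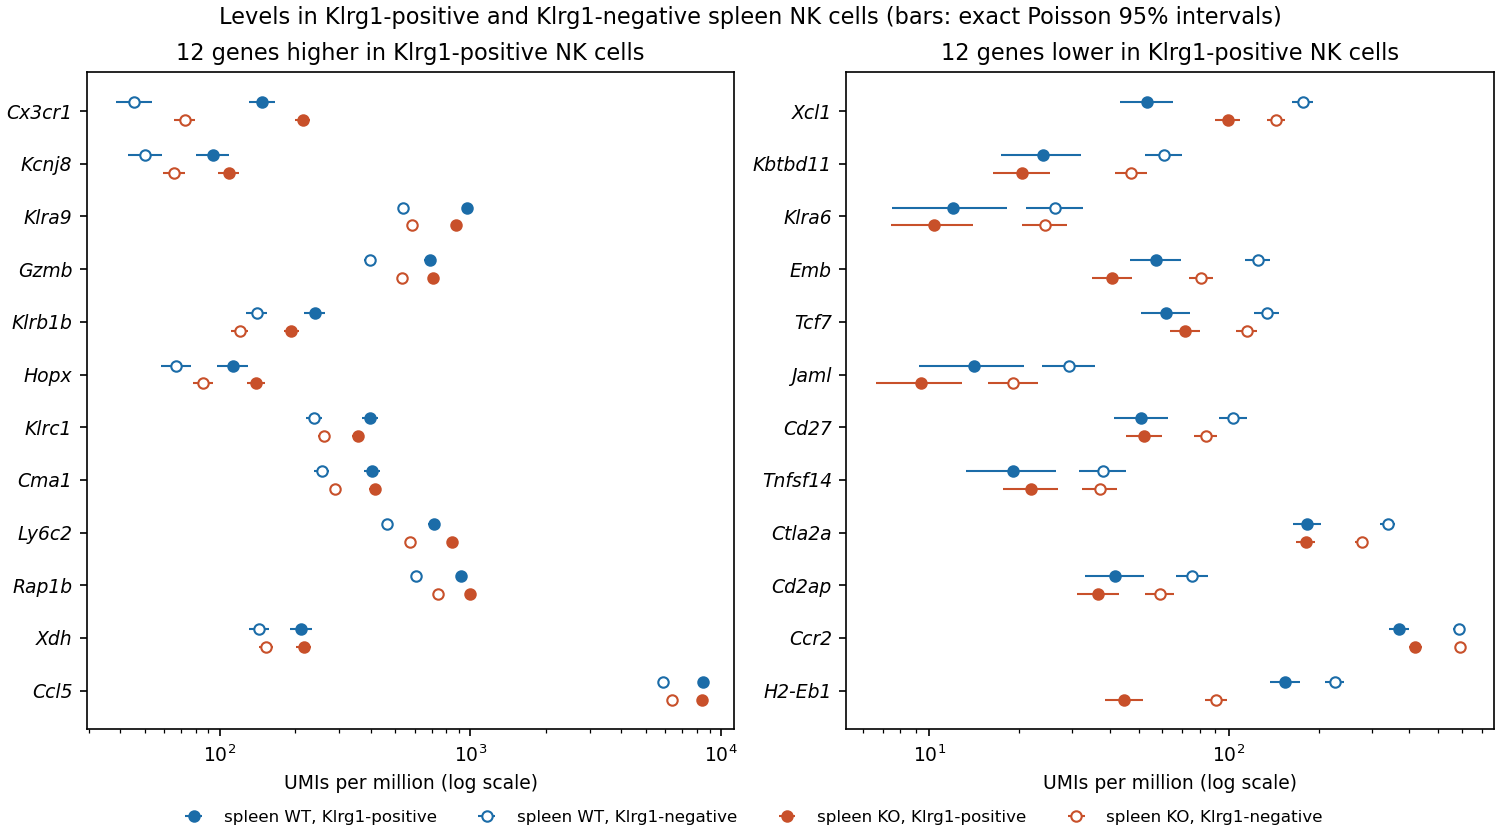
Levels of the 12 genes most clearly higher (left) and the 12 most clearly lower (right) in Klrg1-positive cells of both libraries, in CPM on a log axis. Filled points are Klrg1-positive and open points Klrg1-negative cells, blue for WT and orange for KO, with exact Poisson 95% intervals. Cx3cr1 has the widest gap on the left (log2 ratios 1.70 and 1.56), and Xcl1 shows a wide gap in WT (-1.73) and a narrow one in KO (-0.54).

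The gene most clearly higher with Klrg1 was Cx3cr1, the receptor for fractalkine on blood vessel walls. It was at 148 [131, 166] and 214 [200, 228] CPM in WT and KO Klrg1-positive cells, against 45.6 [38.6, 53.5] and 72.5 [65.7, 79.8] in Klrg1-negative cells. The log2 ratios were 1.70 [1.40, 1.996] and 1.56 [1.39, 1.73]. After thinning, 16.1% of WT and 18.1% of KO Klrg1-positive cells held a Cx3cr1 UMI, against 5.15% [3.61, 7.09] and 7.07% [5.74, 8.59] of Klrg1-negative cells. B cells had it in 4.803% [2.42, 8.43] and 2.97% [1.37, 5.56], so the Klrg1-negative share lay near that background in WT and above it in KO. Cx3cr1 was at 339 and 232 in spleen cells without Ncr1, and its log2 ratios without cells carrying other-type markers were 1.83 and 1.58. S1pr5, which lets NK cells leave the lymph node and marrow, was 0.38 and 0.33 higher. Ccr2, the receptor for the monocyte chemokine Ccl2, was lower, with log2 ratios of -0.66 [-0.79, -0.53] and -0.49 [-0.58, -0.41].

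Among 18 trafficking and adhesion genes, 17 were measured in each split, and Cx3cr1 was the only one at least 1.5-fold higher. Cxcr3, a receptor for interferon-induced chemokines, and Ccr2 were lower past that fold in WT and none was in KO. Over all measured genes, 0.886% in WT and 0.912% in KO were higher past it, and 2.21% and 2.02% lower. Cxcr3 rested on few counts, at 14.1 [9.23, 20.7] and 29.7 [24.1, 36.2] CPM in WT. Ly6c2, a surface antigen of late NK cells and monocytes, was 0.62 and 0.56 higher. Hopx, a homeodomain protein of differentiated lymphocytes, was at 112 against 67.0 in WT and at 139 against 85.8 in KO. Kcnj8, a subunit of an ATP-sensitive potassium channel, was at 94.0 against 50.2 and at 108 against 65.7. Rap1b, a small GTPase of integrin activation, was 0.59 and 0.43 higher. Xdh, the gene of xanthine dehydrogenase, was 0.56 and 0.49 higher.

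Inhibitory receptors other than Klrg1 were partly higher with it. Klrc1 encodes NKG2A, which binds the non-classical MHC molecule Qa-1. It was at 396 [368, 426] and 354 [336, 373] CPM in WT and KO Klrg1-positive cells, against 237 and 259 in Klrg1-negative cells. Klrb1b, which encodes an inhibitory NKR-P1 receptor for Clr-b, had log2 ratios of 0.77 [0.58, 0.96] and 0.69 [0.54, 0.84]. Of 17 genes for inhibitory and checkpoint receptors, 11 were measured. These 2 were the ones at least 1.5-fold higher in WT, against 0.886% of all measured genes. In KO, only Klrb1b was, while Pirb and Lilrb4a, which are myeloid receptors, were lower (-1.06 and -0.62) and did not stay past the fold without cells carrying other-type markers. Over all measured genes in KO, 0.912% were higher and 2.02% lower past the fold. Pdcd1, Lag3, Tigit and Havcr2 had too few UMIs to measure. Of 17 activating receptors and adaptors in the files, 16 were measured in WT, and the one past 1.5-fold higher was Cd226 (DNAM-1), at 136 against 86.0, with 118 against 84.4 in KO.

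The Ly49 receptors, which sense classical MHC class I, are near-identical genes whose reads may be split or shared by the counting, so their values are uncertain. Klra9 was at 972 and 875 CPM in WT and KO Klrg1-positive cells, against 539 and 586 in Klrg1-negative cells. Klra4 went the other way, at 1021 and 960 against 1273 and 1373. After thinning, Klra9 was seen in 59.5% and Klra4 in 43.4% of WT Klrg1-positive cells, against 41.8% and 59.6% of WT Klrg1-negative cells. In KO, the shares were 58.3% and 43.1% against 43.2% and 59.5%. By these shares Klra9 was seen more often than Klra4 in Klrg1-positive cells and less often in Klrg1-negative cells, while in CPM Klra4 was above Klra9 in all 4 groups. At least 3 Ly49 genes were seen in 51.3% of WT and 46.7% of KO Klrg1-positive cells, against 58.7% and 52.0% of Klrg1-negative cells. Klra6, at low levels, was lower with Klrg1 (-1.14 [-1.88, -0.45] and -1.23 [-1.77, -0.73]).

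The transcription factors of NK maturation shifted modestly. Tcf7, which encodes TCF-1 and marks early NK cells, was at 62.0 [51.1, 74.4] against 134 [122, 147] CPM in WT and at 71.4 [63.5, 80.2] against 115 [106, 124] in KO. Zeb2, which drives terminal maturation, was 0.58 [0.51, 0.65] and 0.37 [0.32, 0.42] higher. Eomes, a T-box factor of early and late NK cells, was lower, with log2 ratios of -0.28 and -0.38, while Tbx21 (T-bet), its partner, was 0.22 and 0.24 higher. Of 20 such factors, all were measured and Tcf7 was the one past 1.5-fold in either library.

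Many genes of early NK cells were lower with Klrg1. Of 20 listed, 15 were measured in each split, and 8 in WT and 6 in KO were at least 1.5-fold lower, with none higher. Over all measured genes, 2.21% in WT and 2.02% in KO were that much lower. The list medians were -0.60 and -0.50. Cd27, the TNF receptor that defines the early stage, was at 51.1 and 52.2 CPM in WT and KO Klrg1-positive cells, against 104 and 83.7 in Klrg1-negative cells. Emb, the adhesion protein embigin, was at 57.1 and 40.9 against 125 and 81.1. Emb is also expressed outside NK cells, at 498 and 417 in spleen cells without Ncr1, and leaving out cells with other-type markers gave log2 ratios of -1.39 and -0.93. Ctla2a, an inhibitor of cathepsin-like proteases, had log2 ratios of -0.90 [-1.08, -0.72] and -0.62 [-0.75, -0.49]. The remaining named genes on that side were Kbtbd11 (-1.34 and -1.21), Jaml, Cd2ap, Tnfsf14 and H2-Eb1. H2-Eb1, an MHC class II gene of antigen-presenting cells, had -0.55 in WT and -1.02 in KO, and -0.08 in KO without cells carrying other-type markers. H2-Eb1 is itself one of those markers, so its shift was partly set by leaving out these cells. Jaml was also nearer to 0 without the marker-bearing cells, at -0.48 and -0.52.

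**Figure D3:**
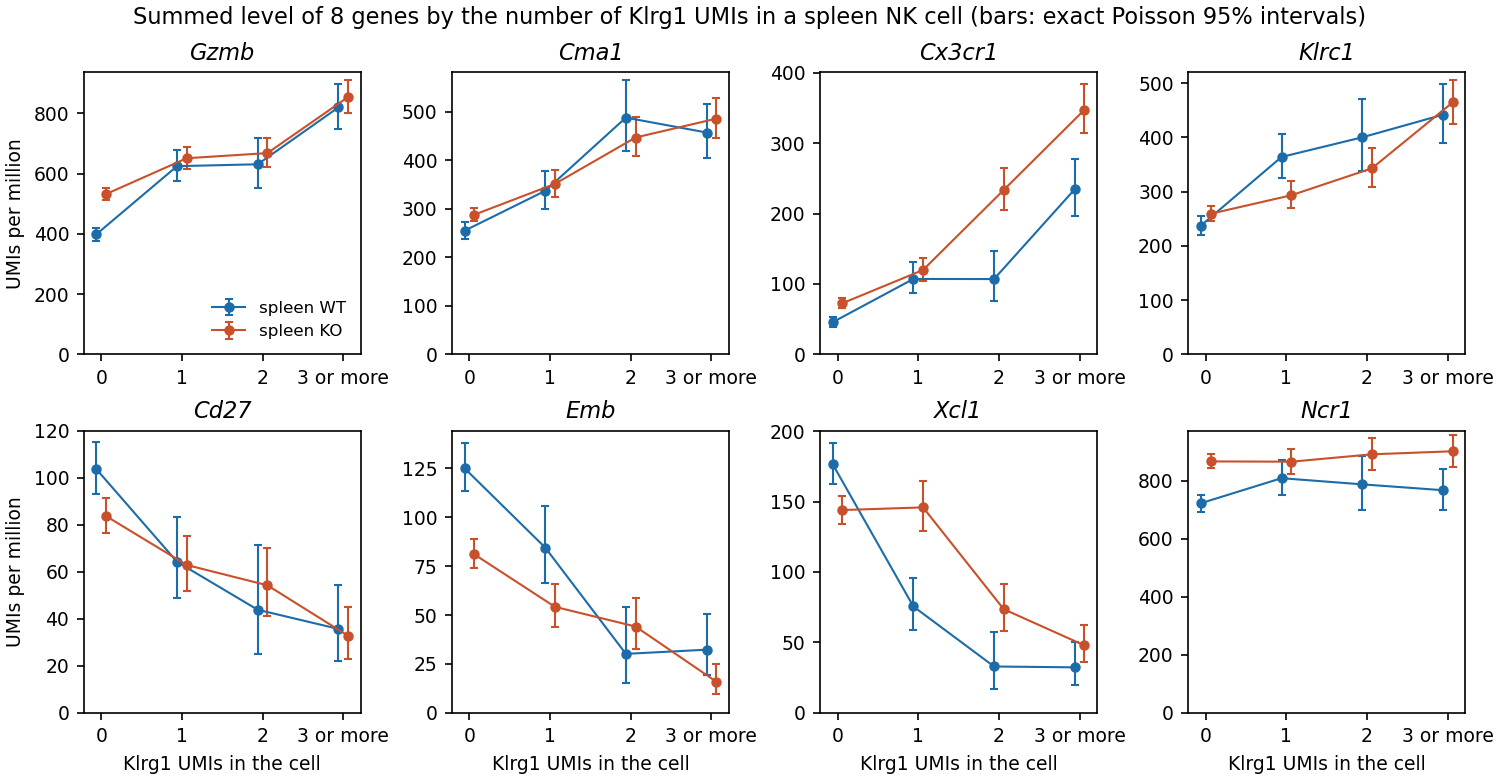
Summed levels (CPM) of 8 genes in spleen NK cells with 0, 1, 2 or at least 3 Klrg1 UMIs, WT in blue and KO in orange, with exact Poisson 95% intervals. Gzmb, Cma1, Cx3cr1 and Klrc1 are highest at 2 or more Klrg1 UMIs, Cd27, Emb and Xcl1 are lowest there, and Ncr1 stays between 722 and 901.

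Levels were also read by the number of Klrg1 UMIs in a cell. Gzmb was at 398, 624, 631 and 819 CPM in WT cells with 0, 1, 2 and at least 3 Klrg1 UMIs, and at 532, 651, 668 and 854 in KO cells, with little difference between the classes of 1 and 2. Cx3cr1 went from 45.6 to 235 in WT and from 72.5 to 348 in KO over the same classes. Cd27 went from 104 to 35.7 and from 83.7 to 32.8. Cells with at least 3 Klrg1 UMIs were also deeper, with medians of 4799 UMIs in WT and 4373 in KO, and the part of depth in these differences was not tested. Ncr1, whose level the rule bounded only from below, stayed between 722 and 808 in WT and between 865 and 901 in KO.

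The libraries shared a minority of the genes past 1.5-fold. Of 6761 genes measured in both splits, 58 in WT and 38 in KO were at least 1.5-fold higher in Klrg1-positive cells, and 6 were so in both (10.3% of the WT and 15.8% of the KO genes). They were Cx3cr1, Hopx, Kcnj8, Klrb1b, Nck2 and Trdv4. On the lower side, 143 and 93 genes shared 17, or 11.9% and 18.3%, among them Cd27, Ctla2a, Emb, Kbtbd11, Ltb, Myb and Tcf7. Of all 6761 genes, 0.562% were at least 1.5-fold higher and 1.38% lower in KO. Of the 58 WT genes, 70.7% lay above 0 in KO, against 48.1% of all 6761 genes, and of the 143 lower ones 61.5% lay below 0, against 51.9%.

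Chemokine genes divided in their relation to Klrg1. Ccl5 (RANTES), stored as transcript in mature NK cells, was at 8480 and 8372 CPM in WT and KO Klrg1-positive cells and was 0.53 and 0.39 above Klrg1-negative cells. Xcl1 (lymphotactin), which attracts cross-presenting dendritic cells, was at 53.3 [43.2, 64.9] in WT Klrg1-positive cells and at 176 [162, 192] in WT Klrg1-negative cells. In KO, it was at 99.3 [89.8, 109] and 144 [134, 154]. Ccl4 (MIP-1 beta), which attracts other immune cells, was at 207 against 324 in WT and at 400 against 378 in KO. Ifng (interferon gamma) was at 48.9 [39.3, 60.1] against 71.9 [63.0, 81.7] in WT and at 65.5 [57.9, 73.9] against 70.1 [63.4, 77.3] in KO. The WT gaps for Ccl4, Xcl1 and Ifng were thus wider than the KO gaps, a difference that was not tested.

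Between the genotypes, Klrg1-positive cells had no measured granule or mature program gene past 1.5-fold. Of 7066 genes measured, 105 were at least 1.5-fold higher (1.49%) and 146 at least 1.5-fold lower (2.07%) in KO. In simulated counts, 1.27% of genes drawn without a difference passed 1.5-fold, in either direction, by counting error alone. In the 12 measured granule genes the log2 ratio of KO over WT ran from -0.33 (Srgn, the granule proteoglycan) to 0.15 (Prf1), with a median of 0.05. The 20 mature program genes had a median of 0.01 and ran from -0.15 to 0.53, and none passed 1.5-fold. Cx3cr1 was the highest of them at 0.53 [0.33, 0.73]. Tbx21 was 0.36 [0.21, 0.51] higher and Eomes -0.26 [-0.36, -0.15] lower, and both had the same direction in Klrg1-negative cells.

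**Figure D4:**
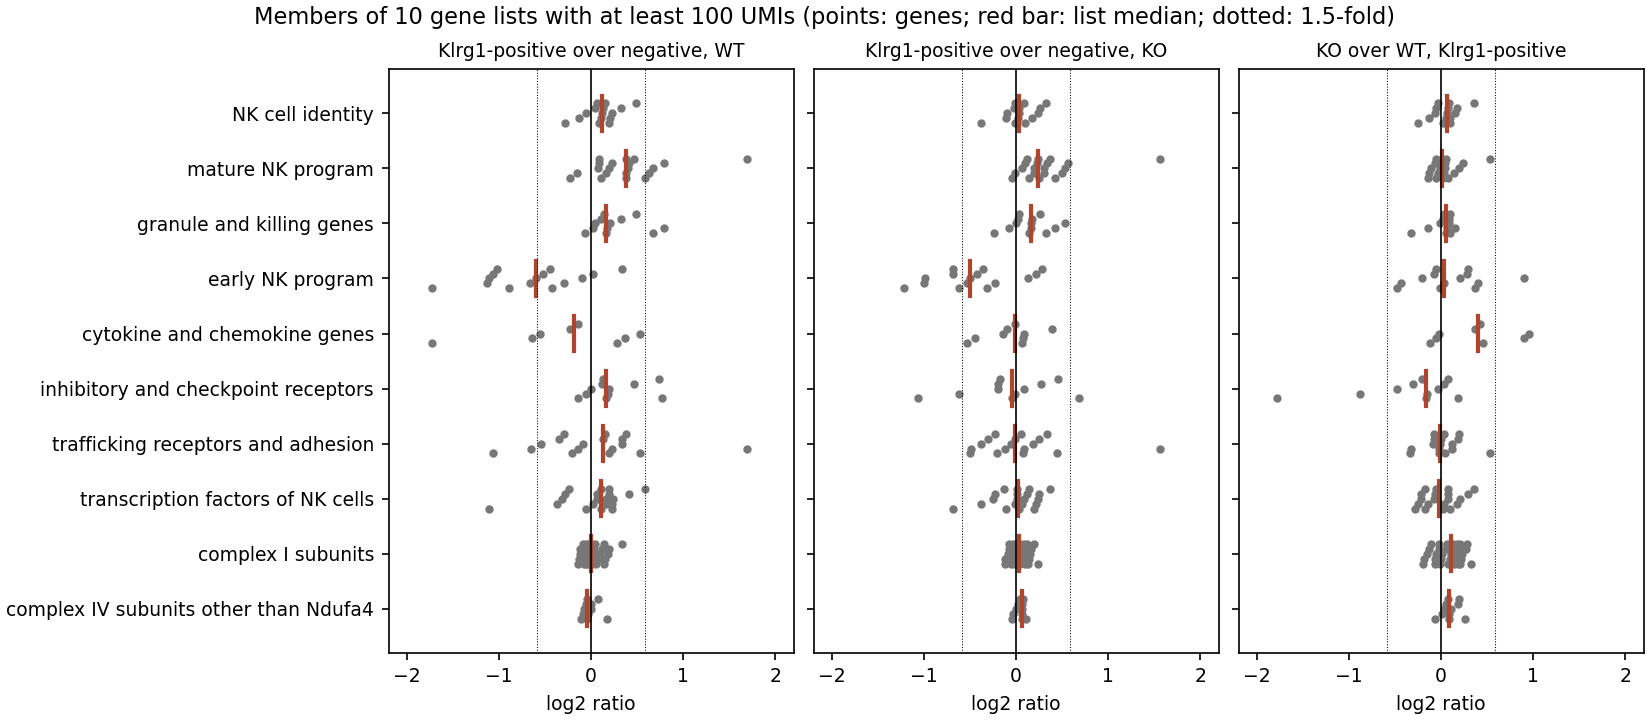
Log2 ratios of the measured members (grey points) of 10 gene lists, with list medians as red bars and dotted lines at 1.5-fold, for Klrg1-positive over Klrg1-negative cells in WT and KO and for KO over WT in Klrg1-positive cells. The early NK program lies to the left in the first pair of panels (medians -0.60 and -0.50), and the cytokine and chemokine list to the right in the last (median 0.40).

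The subunits of the respiratory chain stood near 0, with most of those not encoded by mitochondrial DNA slightly above it. All 36 complex I genes were measured in the KO over WT contrast of Klrg1-positive cells, with a median of 0.11 and a range from -0.20 to 0.33. The 11 measured complex IV genes other than Ndufa4 had a median of 0.09 (-0.07 to 0.26), and the 28 genes of complexes II, III and V one of 0.10 (-0.09 to 0.30). Above 0 were 24 of 36, 10 of 11 and 24 of 28 genes, against 49.8% of all measured genes. In Klrg1-negative cells the counts above 0 were 21 of 36, 9 of 11 and 13 of 28, against 47.8%. The 13 genes of mitochondrial DNA had a median of 0.01 (-0.47 to 0.20), with summed levels of 34989 CPM in WT and 37189 in KO. No gene of these lists passed 1.5-fold. Glycolysis and hypoxia genes, 14 measured, had a median of -0.07, and none passed 1.5-fold.

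Ccl4 and Xcl1 were higher in KO Klrg1-positive cells. Ccl4 had a log2 ratio of 0.95 [0.79, 1.12] and Xcl1 one of 0.90 [0.58, 1.23], against 0.23 and -0.29 in Klrg1-negative cells, where 1.1% of 8127 genes were at least 1.5-fold higher and 2.49% lower in KO. Of 14 cytokine and chemokine genes, 8 were measured in Klrg1-positive cells, these 2 were past 1.5-fold, and the median was 0.40. Over all genes measured in these cells, 1.49% were that much higher in KO. Ifng was at 0.42 [0.07, 0.78], Ccl3 (MIP-1 alpha) at 0.37 and Ccl5 at -0.02. The share of cells with a Ccl4 UMI was 21.96% [17.9, 26.5] in WT and 22.8% [20.1, 25.8] in KO after thinning, and 37.2% and 43.5% before. The highest thinned cell had 8 Ccl4 UMIs in WT and 64 in KO, while the highest Klrg1-negative cells had 36 and 46. A single KO cell gave 9.54% of all Ccl4 UMIs of its group. Xcl1 was seen in 4.76% of WT and 7.69% of KO cells.

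The chaperone genes Hsph1 and Hsp90ab1 were also higher. Hsph1 (HSP110), a nucleotide exchange factor of Hsp70, was at 45.1 [35.9, 55.9] CPM in WT and 111 [101, 121] in KO Klrg1-positive cells, a log2 ratio of 1.29 [0.95, 1.65]. It was seen in 5.56% of thinned WT and 15.0% of thinned KO cells. Hsp90ab1, the constitutive HSP90, was at 789 [749, 831] and 1261 [1227, 1296], a ratio of 0.68 [0.59, 0.76]. No list of chaperones had been fixed, and the following values were chosen after they were seen. Hspe1 (0.67), Stip1 (0.66) and Chordc1 (0.60) were past 1.5-fold, while Hsp90aa1 (0.51), St13 (0.50) and Hspa8 (0.42) were not. Of 7 measured genes listed for mitochondrial and integrated stress, Hspe1 alone was past 1.5-fold, and the median was -0.01. Dnajb1, an Hsp70 co-chaperone, was at -0.38, and Hspa1a and Hspa1b had too few UMIs to measure. In Klrg1-negative cells, Hsph1 was at 0.77, Hsp90ab1 at 0.46, Stip1 at 0.85, and Hspe1 at -0.02.

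Some genes differed by genotype in Klrg1-positive cells and outside them alike. Cd55 (decay-accelerating factor), which restrains complement, was at 9.24 [5.38, 14.8] CPM in WT and 53.7 [46.8, 61.3] in KO Klrg1-positive cells. Ctse (cathepsin E), a protease of the endosome, was at 118 [103, 135] and 22.7 [18.3, 27.8]. The same directions stood in Klrg1-negative cells, with log2 ratios of 1.71 and -2.79. In spleen cells without Ncr1, Cd55 was at 12.9 and 44.6, and Ctse at 132 and 43.2. Cd55 and Ctse both lie on chromosome 1, at chr1:130439027-130462744 and chr1:131638306-131675505.

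**Figure D5:**
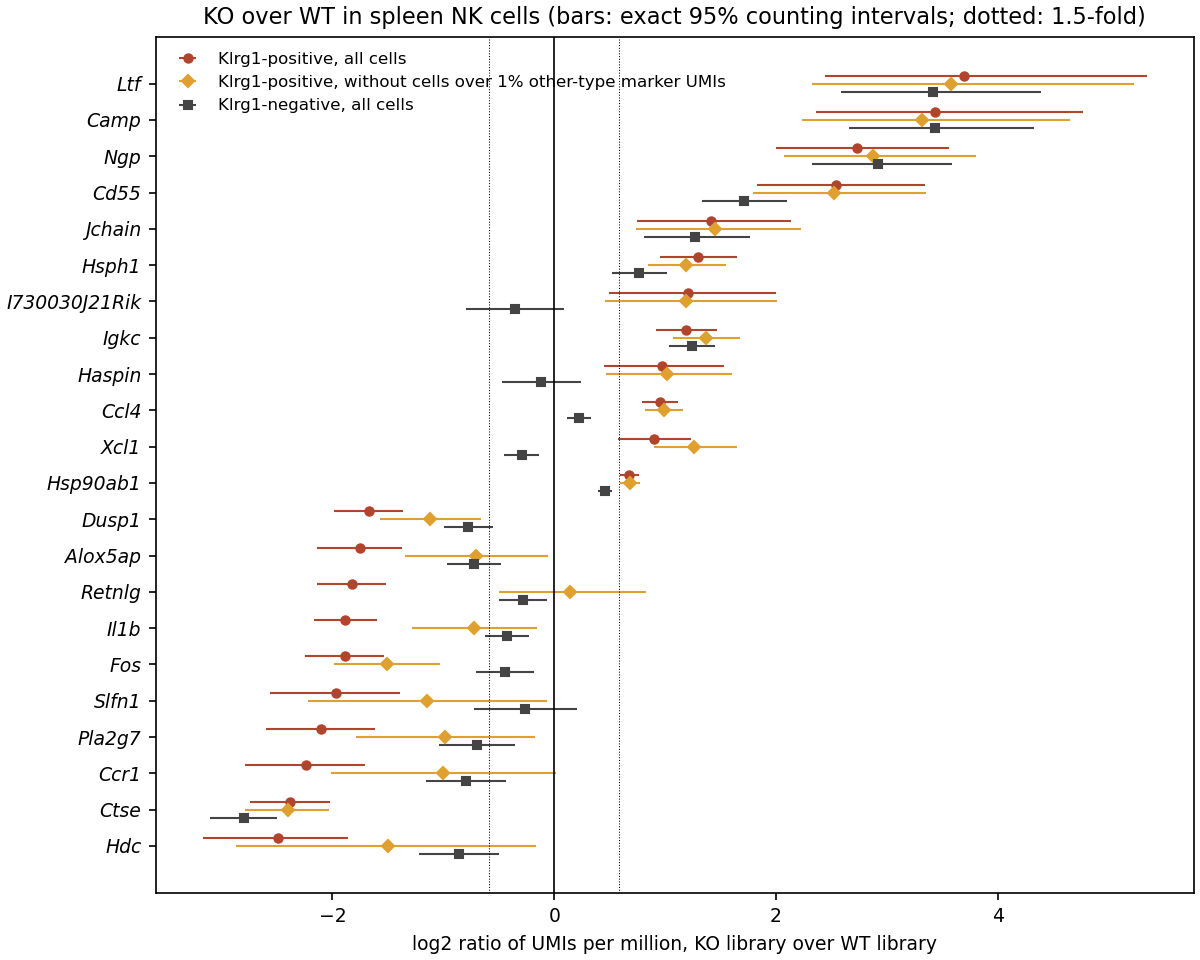
Log2 ratios of KO over WT with exact 95% counting intervals for the genes most clearly higher or lower in KO, other than Ndufa4, in Klrg1-positive cells (circles), in Klrg1-positive cells without those over 1% other-type marker UMIs (diamonds) and in Klrg1-negative cells (squares). Cd55, Hsph1, Ccl4 and Ctse keep their place without the marker-bearing cells, while Retnlg, itself one of the markers, goes from -1.83 to 0.15.

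Several of the clearest genotype differences were in genes of other cells. Ltf, Camp and Ngp, granule proteins of immature neutrophils, had log2 ratios of 3.70, 3.44 and 2.73, from levels of 2.72, 3.80 and 8.70 CPM in WT. In spleen cells without Ncr1, Ltf was at 197 in WT and 2778 in KO, Camp at 375 and 4913, and Ngp at 503 and 6383. Igkc and Jchain, antibody genes of plasma cells, were at 1.19 and 1.41, and at 4150 and 12779 (Igkc) in cells without Ncr1. On the lower side, Hdc, Ccr1, Pla2g7, Il1b, Retnlg, Slfn1 and Alox5ap, mostly myeloid genes, had ratios between -2.49 and -1.75. Without cells carrying other-type markers these were between -1.50 and 0.15, and Retnlg was above 0. Retnlg is itself one of those markers, so its shift was partly set by leaving out these cells. Of the 146 lower genes, 68.5% were higher in spleen cells without Ncr1 than in NK cells, against 31.5% of all measured genes. For the 105 higher genes that share was 25.7%, against 25.5%. Without those cells, 87 genes were lower in place of 146, and 110 higher in place of 105. The part of RNA from other cells in single genes was not tested.

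Fos and Dusp1 led the immediate early genes at lower level in KO. Fos, a subunit of AP-1, was at 96.7 [83.0, 112] CPM in WT and 26.1 [21.4, 31.6] in KO Klrg1-positive cells, a ratio of -1.89 [-2.25, -1.53] and of -1.50 [-1.99, -1.03] without marker-bearing cells. Dusp1, a phosphatase of MAP kinases, had -1.67 [-1.98, -1.37] and -1.12 without those cells. Of 27 immediate early and dissociation genes, 22 were measured, these 2 were past 1.5-fold, and the median was -0.08. Over all measured genes, 2.07% were that much lower in KO. Of 12 glucocorticoid and quiescence genes, 10 were measured, 9 lay below 0, and the median was -0.37, while the one past 1.5-fold was Dusp1. Tsc22d3 (GILZ) was at 278 and 201 and Fkbp5 at 152 and 104, with ratios of -0.47 [-0.63, -0.31] and -0.54 [-0.76, -0.32]. The 12 measured in Klrg1-negative cells had a median of -0.42.

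Type I interferon response genes past 1.5-fold were mostly lower in KO, and fewer of them were so without marker-bearing cells. Of 50 such genes, 33 were measured in Klrg1-positive cells, and 21 of these lay below 0. At least 1.5-fold higher in KO were 2 (Bst2 and Zbp1) and lower 8, against 1.49% higher and 2.07% lower of all measured genes. The 8 lower genes included Slfn1, Oasl2, Slfn5, Ifitm1, Ifitm2 and Ifitm3, all at higher levels in spleen cells without Ncr1. Without cells carrying other-type markers, 3 were lower and the median went from -0.12 to 0.00. Among cytokine receptors, the level of Ifngr1 was -0.28, that of Il18rap -0.18 and that of Il2rb 0.06 relative to WT, and none of 22 measured genes of that list passed 1.5-fold. MHC class I genes, 17 measured, had a median of 0.05.

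Proliferation genes were carried by few cells. Cells with at least 3 UMIs over 4 cycling genes made up 1.85% (7 cells) of WT and 2.06% (18 cells) of KO Klrg1-positive cells, against 1.59% (11 cells) and 0.602% (8 cells) of Klrg1-negative cells. Mki67, a marker of dividing cells, was at 72.3 and 65.0 CPM in WT and KO Klrg1-positive cells, against 110 and 14.7 in Klrg1-negative cells. The median of the measured cell cycle genes, Klrg1-positive over negative, was -0.10 in WT and 0.41 in KO. Without the cycling cells, a choice made after the data had been seen, it was 0.23 in WT and 0.03 in KO.

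In the tumours the same rule found 8 Klrg1-positive NK cells in WT and 73 in KO, or 9.30% and 16.5% of NK cells. The interval of that difference, 7.21 [-1.39, 13.1] points, covered 0. The 8 WT cells are too few to describe. In the KO tumour, 3.95% of 4806 measured genes were at least 1.5-fold higher and 7.07% lower in Klrg1-positive than in Klrg1-negative cells. Cma1 was at 183 against 35.1 CPM, and Gzmb at 2422 against 1117. Of the 12 genes named as higher in the spleen, 10 were measured there, 7 were higher and 5 were past 1.5-fold. Of the 12 named as lower, 9 were measured, all 9 were lower and 7 were past 1.5-fold. Of all genes measured there, 49.2% were higher and 50.8% lower. Dendritic cell markers summed to 1131 CPM in Klrg1-negative and 272 in Klrg1-positive cells of the KO tumour, and B cell markers to 723 and 171. The part of RNA from other cells in these directions was not tested. Klrc1, at -0.39 [-0.78, -0.02], and Klrb1b, at -0.26 [-0.54, 0.00], did not have the direction they had in the spleen.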

How the data were processed

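The deposited matrices held raw UMI counts per gene and cell, made by Cell Ranger 6.0.0 per the file headers; the submitters' processing notes name Cell Ranger 3.1, Seurat 3.1 and Seurat 3.1.4, with builds mm10 and GRCm38. The sources used here do not say whether doublets had been removed before deposit. The protocol names 16000 cells loaded per lane of the Chromium 3' v3.1 kit.

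Cells were taken by the stated rule from the 2 spleen libraries, their counts were summed per group, and sums were scaled to 1e+06 UMIs (CPM), with no other normalization. Levels have exact Poisson 95% intervals, ratios exact conditional binomial intervals, shares Clopper-Pearson intervals and differences of shares Newcombe intervals. PCR copies are removed by UMIs, but the intervals cover counting error only. A ratio was called past 1.5-fold among genes with at least 100 UMIs over both groups, rule genes left out. A group at 0 was set to a floor of 3 counts over the group. Since a genotype had 1 pooled library in each organ, no test was run, and cells could not be assigned to single mice.

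The members, gene lists and rules were chosen with earlier results of these data known. The 35 lists held 548 genes, of which 540 matched the files. Named genes were Ndufa4, Ncr1, Klrg1, Cma1, Gzmb and Ifng, the 12 genes per direction whose interval bound lay farthest from 0 (in both libraries for the Klrg1 split) with under 20% of UMIs from 1 cell, and up to 4 members per list; others are said to be chosen after their values were seen. Not every gene picked by this naming rule is reported here. No doublet was removed in the main values. An own implementation of Scrublet's method marked 5.54% of WT and 7.00% of KO Klrg1-positive cells, against 2.75% and 3.98% of Klrg1-negative cells. It was used as an alternative. In all, 13 alternatives were planned and 2 were added after the data had been seen. The calculation was tested on simulated counts, where 1.27% of unchanged genes passed 1.5-fold in KO over WT of Klrg1-positive cells. The share was 1.02% in the WT split. Coordinates are from GENCODE M21 (GRCm38) and promoter sequences from RefSeq (GRCm38.p6). Tools were Python 3.11.15 with numpy 2.4.6, scipy 1.17.1, pandas 2.3.3, scikit-learn 1.9.0 and matplotlib 3.10.9, and R 4.3.3 with edgeR 4.0.16 for TMM scaling factors only.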

Additional observations from a re-analysis of the deposited data

Results flagged for a closer look

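Several genes had opposite directions in the 2 libraries, or in the 2 classes of cells. No such difference was tested, since each side rests on 1 library. Klrg1-positive over Klrg1-negative cells, Slfn1 had a log2 ratio of 0.89 in WT and -0.82 in KO. The proliferation genes Mki67 and Rrm2 had -0.61 and -1.06 in WT, and 2.14 and 0.81 in KO. The haemoglobin genes Hbb-bs, Hba-a1, Hbb-bt and Hba-a2 had -5.23, -4.20, -4.41 and -4.02 in WT, and 2.53, 3.04, 2.68 and 1.29 in KO. Between genotypes, Hbb-bs was at 1.20 in Klrg1-positive and -6.56 in Klrg1-negative cells, and Hba-a1 at 0.98 and -6.26. A single WT Klrg1-negative cell gave 73.4% of the Hbb-bs UMIs of its group, and a single KO Klrg1-positive cell 76.7%.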

How the results depend on the processing

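No paired analysis was possible because each genotype and organ was 1 library, and for the same reason no replicate could be left out. The KO minus WT difference in the Klrg1-positive share of NK cells stayed between 3.71 and 4.67 points over the 9 alternatives that change which cells are counted. Counts of genes past 1.5-fold moved with the minimum UMIs and with depth. They are given as KO over WT in Klrg1-positive cells, higher and lower, then the WT split and the KO split, higher and lower in each (105, 146, 60, 150, 75 and 166). With 50 UMIs per gene they were 268, 308, 151, 392, 190 and 310, with 200 they were 31, 52, 22, 49, 21 and 64, and with 1 UMI 1068, 1237, 792, 1461, 842 and 1164. After thinning to 1500 UMIs, fewer genes reached the minimum: KO over WT gave 68 and 46, of which 9 and 17 were among the main genes, the WT split 60 lower (13 among them), and the KO split 41 and 72 (8 and 28). With the Klrg1 state read after thinning, KO over WT gave 46 and 26 (3 and 6 among the main genes). With at least 2 Klrg1 UMIs, 89 were lower in KO and 244 in the WT split. Without cells over 1% other-type marker UMIs, 87 were lower in KO and 93 in the KO split; without doublet candidates, 86 were lower in KO. With Lyz2 at 0 and at most 1 monocyte UMI, 71 were lower in the WT and 105 in the KO split. Without cycling cells, 49 were higher in the KO split. The alternatives without marker-bearing and without cycling cells were chosen after seeing the data.

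Of 98 list medians, 58 took both signs over the alternatives. Of 5291 alternative values of genes and lists, 37 belonged to genes past 1.5-fold in the main values and had the opposite sign. A further 843 were classed as moved from their main value, 204 of them with the Klrg1 state read after thinning. The cause of these changes was not tested. In KO over WT, with the Klrg1 state read after thinning, I730030J21Rik went from 1.21 to -0.33, Itga1 from 0.60 to -0.62, Oasl2 from -1.61 to 0.67 and Slfn5 from -1.30 to 0.99. Without marker-bearing cells, Retnlg (-1.83), itself one of the markers, was at 0.15, Slfn5 at 0.14 and, in Klrg1-negative cells, Pla2g7 (-0.70) at 0.056. Without doublet candidates, Retnlg was at 0.12 and Lilrb4a (-0.88) at 0.11, and with Lyz2 at 0, Lilrb4a was at 0.69. In the WT split, Ifi27l2a (0.63) was at -0.064 with the thinned state, -0.16 without marker-bearing cells, -0.67 without doublet candidates, -0.10 with equal weight per cell, -0.16 with Lyz2 at 0 and -0.00085 thinned. Mki67 (-0.61) was at 0.29 with at least 2 Klrg1 UMIs, 0.56 without marker-bearing cells, 0.37 without cycling cells, 0.092 with equal weight and 0.36 thinned. Hspe1 (-0.63) was at 0.11 with the thinned state, 0.0078 with Lyz2 at 0 and 0.0039 thinned. Slfn1 (0.89) was at -0.52 without doublet candidates, Cxcr3 (-1.07) at 0.16 thinned, and Egr1 (-0.86) and Rrm2 (-1.06) at 0.37 and 0.57 with Lyz2 at 0. In the KO split, with the thinned state, Ube2c (3.39), Mki67 (2.14), Top2a (1.89) and Rrm2 (0.81) were at -0.59, -1.03, -0.90 and -2.48. Ube2c was at -0.18 without cycling cells, Ifitm3 (-0.64) at 0.018 without marker-bearing cells, Il7r (-0.997) at 0.22 with a mitochondrial limit of 5%, and H2-Eb1 and Ciita (both -1.02) at 1.00 and 2.10 with Lyz2 at 0.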
